A study of Mus musculus with 6 samples.

Results

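Erg and 9 further genes of the ETS family, Fli1, Ets1, Ets2, Etv6, Spi1, Elf1, Elf4, Gabpa and Elk3, were followed in 32D cells, an interleukin-3-dependent mouse myeloid line. They were taken as a named set from the probe set annotation, 10 of 18194 genes that have at least 1 probe set naming no other gene, and each was read from its brightest probe set, with both probe sets read for Erg. Both microRNA strands, miR-9 and miR-9*, were expressed from a construct labelled C2-MiR-9 in 3 samples, and an empty vector labelled A1-EV was present in the other 3. Medium with 10% serum and interleukin-3 at 10 ng/ml was used throughout, and each arm has replicate numbers 1 to 3. The labels do not say whether an arm is a clone or a pool of cells, and the replicates are described only as independent. Each sample gave 1 array of MAS5 signals, the scaled brightness of a probe set on a linear scale, with a trimmed mean of 100 on every array and medians from 12.0 to 15.2. In such bulk RNA, fewer cells of a type and less message per cell cannot be told apart. The comparison asks how the ETS messages differ once both strands of the microRNA are expressed, and the number of arrays limits its precision.

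ETS factors share a DNA-binding domain that recognises sites around a GGAA core, and they differ in their partners and in whether they activate or repress. In blood, ERG and FLI1 maintain stem cells and drive megakaryocyte genes, PU.1 (the product of Spi1) directs myeloid and B cell differentiation, and ETV6 is a repressor needed by adult stem cells. MicroRNAs pair through their seed, bases 2 to 8, with messages whose levels or translation they lower, and ERG has been reported elsewhere as a target of miR-9.

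The sequences of the expressed strands are shown because their seeds define which messages they can pair with. They are the RefSeq mature forms (GRCm38.p6), written 5′ to 3′ with the seed in capitals. RefSeq places them at 3 mouse loci, on chromosomes 3, 7 and 13, with 1 sequence per strand over all 3.
miR-9 (miR-9-5p): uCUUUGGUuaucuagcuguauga
miR-9* (miR-9-3p): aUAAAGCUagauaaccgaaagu
The strands do not share a seed. No probe set of the array is annotated to a miR-9 gene (0 probe sets), so the expression of the microRNA itself was not measured here, and 3′ untranslated sequences of the ETS messages were not used here.

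Erg was the member that differed most between the arms. Its signal was 201, 369 and 186 in miR-9/9* cells of replicate numbers 1, 2 and 3, against 311, 565 and 399 in empty vector cells (probe set 1440244_at). Number 2 was the highest array of both arms, and the arms overlapped because number 2 of the miR-9/9* arm lay above number 1 of the empty vector arm. Within each replicate number the miR-9/9* array was the lower, by 0.59, 0.59 and 1.04 on the log2(signal + 16) scale, a scale that understates changes of dim genes. The mean was 252 ± 102 in miR-9/9* cells and 425 ± 129 in empty vector cells (SD, n = 3 each), a log2 fold change of -0.74. Without pairing the arrays, this difference did not pass (limma, SE 0.277, unadjusted p = 0.0263, adjusted p = 0.996). With the replicate number as a block Erg fell (SE 0.0971, 95% interval -0.96 to -0.52, adjusted p = 0.00646), and it stood at rank 48 by p of 10208 genes tested. Same-numbered arrays deviated together over all genes, which is why the block is given beside each result it changes. The labels themselves state no pairing of these arrays. With all 6 arrays the block leaves 2 residual degrees of freedom. The blocked call was lost without a variance trend (adjusted p = 0.0764).

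The other Erg probe set, 1425370_a_at, was close to the dim end of the array. It read 1.11, 1.21 and 6.51 in miR-9/9* cells and 1.64, 5.11 and 11.2 in empty vector cells. All 6 values lay below 12.9, the signal under which probe sets were left out of the tests, and the mean difference was -0.20 on the log2 scale. Both probe sets were thus lower in 3 of 3 replicate numbers, but only the bright one was tested. Which part of the Erg message each probe set reads was not analysed here.

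**Figure D1:**
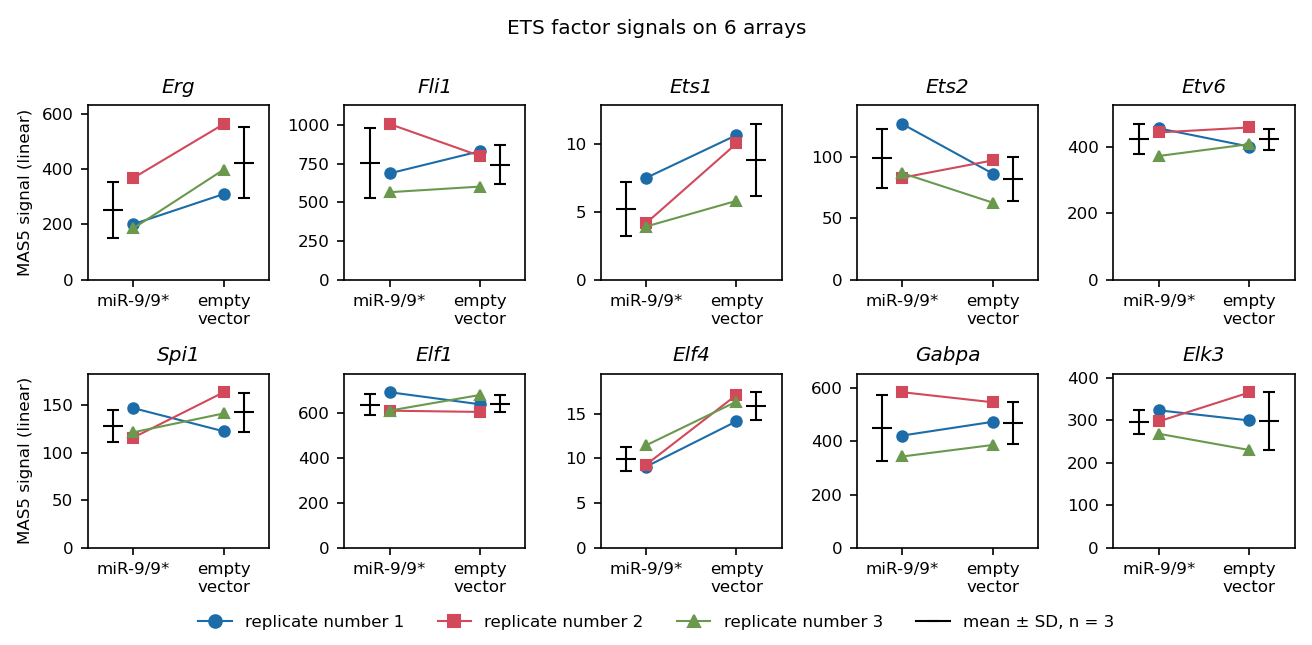
MAS5 signal (linear axis from 0, a separate scale per gene) of the 10 ETS factors on the 6 arrays. Coloured points joined by a line are the miR-9/9* array (left) and the empty vector array (right) of 1 replicate number, and black bars give the mean ± SD of 3 arrays. All 3 lines of Erg run lower on the miR-9/9* side, with number 2 the highest in both arms, while the lines of Fli1, Etv6 and Gabpa cross or run flat.

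Fli1, the closest relative of Erg and its partner in megakaryocyte gene control, gave 688, 1008 and 566 in miR-9/9* cells, against 832, 801 and 603 in empty vector cells. The arms overlapped fully, with number 2 higher and numbers 1 and 3 lower in the miR-9/9* arm. Its means were 754 ± 228 in miR-9/9* cells and 745 ± 124 in empty vector cells (SD, n = 3 each), a log2 fold change of -0.01 with a blocked 95% interval of -0.24 to 0.22 (limma adjusted p = 0.999, and 0.980 with the block). Its dimmer probe set, 1422024_at, was at 152, 199 and 140 in miR-9/9* cells and at 131, 198 and 128 in empty vector cells, a mean difference of 0.11 that was positive in 3 of 3 numbers.

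Ets1 and Ets2 are the founding members of the family, activators that answer to MAP kinase signals. Ets1, which is prominent in lymphoid cells, was dim on every array, at 7.50, 4.15 and 3.91 in miR-9/9* cells and 10.7, 10.0 and 5.81 in empty vector cells. All 4 of its probe sets lay below the filter, and without a filter it did not pass (log2 fold change -0.23, limma adjusted p = 1.00 without the block and 0.547 with it). Ets2 was at 127, 83.0 and 86.7 in miR-9/9* cells, against 86.2, 97.1 and 62.6 in empty vector cells. It was higher in numbers 1 and 3 and lower in number 2, and did not pass (log2 fold change 0.22, blocked 95% interval -0.09 to 0.54, blocked adjusted p = 0.468).

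Gabpa encodes the ETS subunit of GABP, a factor of many housekeeping promoters that needs a beta subunit to activate. Its signal was 422, 585 and 343 in miR-9/9* cells and 474, 547 and 387 in empty vector cells. Number 2 was the highest and number 3 the lowest in both arms, and the arms overlapped. The log2 fold change was -0.08 (blocked 95% interval -0.25 to 0.09, blocked adjusted p = 0.674). Its dimmer probe set, 1450665_at, was separated between the arms, at 55.7, 58.2 and 68.6 in miR-9/9* cells and 78.7, 69.3 and 75.1 in empty vector cells. The probe sets of this gene thus differed in whether the arms overlapped, and only the brighter was tested. Elk3, a ternary complex factor that represses serum response genes until it is phosphorylated, was at 324, 298 and 269 in miR-9/9* cells and 300.03, 366 and 230.4 in empty vector cells. Its log2 fold change was 0.01 (blocked 95% interval -0.21 to 0.23), with replicate numbers of both signs.

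Elf1 and Elf4 belong to the ELF branch, which is active in blood and endothelial cells, and Elf4 restrains the cycling of T cells. Elf1 had 691, 609 and 609 in miR-9/9* cells, against 637, 604 and 679 in empty vector cells, with number 1 of the miR-9/9* arm the highest array and the arms overlapping. Its log2 fold change was -0.01 (blocked 95% interval -0.17 to 0.16). Elf4 lay just below the filter, with a mean log2 value of 4.84 against the limit of 4.86, and was not tested with the other genes. It read 9.06, 9.28 and 11.5 in miR-9/9* cells, against 14.1, 17.1 and 16.4 in empty vector cells. These arms did not overlap. Without a filter Elf4 had a log2 fold change of -0.30 and did not pass (limma adjusted p = 1.00 without the block and 0.495 with it). Its other probe set, 1421337_at, ran from 2.75 to 14.3 in miR-9/9* cells and from 4.86 to 15.4 in empty vector cells, with replicate numbers of both signs.

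Etv6, the repressor, was at 456, 444 and 373 in miR-9/9* cells and at 401, 459 and 408 in empty vector cells. The means were 424 ± 45.0 in miR-9/9* cells and 423 ± 31.4 in empty vector cells (SD, n = 3 each), with a blocked 95% interval of -0.17 to 0.18 on the log2 scale. A dimmer Etv6 probe set, 1423401_at, was lower in 3 of 3 numbers by a mean of 0.26. Spi1, which has a single probe set here, was at 147, 116 and 122 in miR-9/9* cells and at 123, 164 and 141 in empty vector cells. Number 1 was higher and numbers 2 and 3 were lower in miR-9/9* cells, for a log2 fold change of -0.14 (blocked 95% interval -0.42 to 0.15, blocked adjusted p = 0.657).

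**Figure D2:**
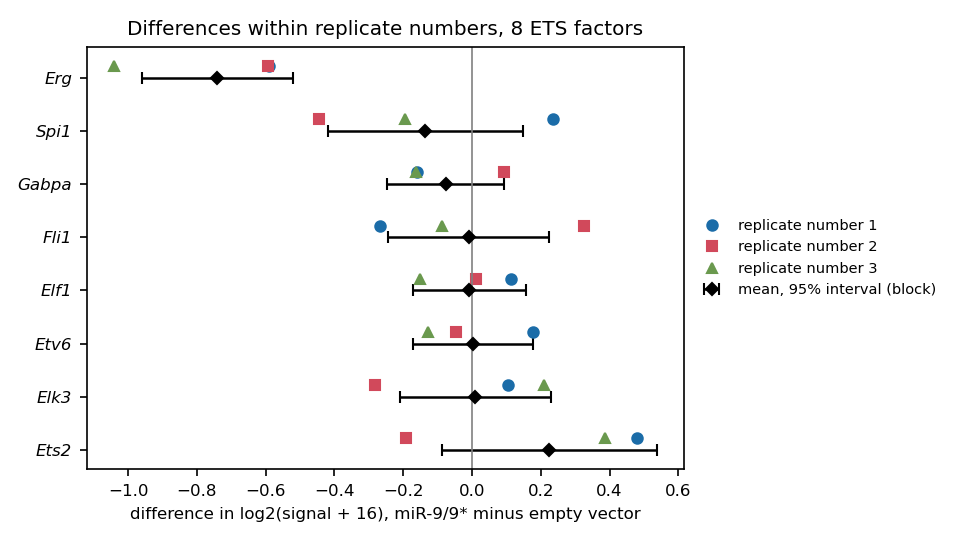
Difference in log2(signal + 16), miR-9/9* minus empty vector, for the 8 ETS factors above the filter, ordered by their mean. Coloured points are the 3 replicate numbers, black diamonds the mean, and bars the 95% interval from limma when replicate number is blocked. The interval of Erg, -0.96 to -0.52, lies below 0, and those of the other 7 factors include 0.

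Of the 10 members, 8 were above the filter and tested. With the block 1 of the 8 fell, where 1.45% of all genes tested fell, and 0 rose, where 1.51% did, 2.96% in either direction. Without the block 0 of the 8 passed in either direction (limma, 1 with an unadjusted p under 0.05), where 0.0392% of all genes were called lower, 0.0196% higher and 0.0588% either way. The median log2 fold change was -0.01 for the 8 members and 0.01 for all genes. On the brightest probe set of each gene, Ets1 and Elf4, both below the filter, were lower in 3 of 3 replicate numbers. Of the 8 above it, Erg was the only member lower in 3 of 3. That pattern was shown by 18.0% of all genes, and 0 of the 8 were higher in 3 of 3, as 21.0% of all genes were. None of the 8 had separated arms on that probe set (0 of 8), which 9.82% of all genes had, 4.74% with the miR-9/9* arm below. Among dimmer probe sets above the filter, those of Etv6 (1423401_at) and Gabpa (1450665_at) were lower in 3 of 3 numbers, with separated arms for Gabpa. Those of Fli1 (1422024_at) and Elk3 (1445886_at) were higher in 3 of 3. In each of the 3 replicate numbers Erg had the lowest difference of the 8. Whether its change differed from theirs was tested on the log2 ratio of Erg to each of the other 7 members. The ratio was lower in miR-9/9* cells in 3 of 3 numbers for all 7. That follows from Erg having the lowest difference in each number, so it adds no support. The arms were separated for Fli1 and Gabpa, with differences of -0.73 and -0.66 in the log2 ratio (two-sided exact permutation p = 0.1 each, the smallest that 3 arrays against 3 can give, and 0.28 after adjustment over the 7). For the other 5 the exact permutation p was 0.2 or 0.3. A threshold of 0.05 therefore cannot be reached by this test.

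Among the 14 further probe sets of the members, 8 were above the filter, with mean differences from -0.26 to 0.19 on the log2 scale. Of these 2 were lower and 2 higher in 3 of 3 numbers, and 7 had overlapping arms.

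The genome puts members side by side. Erg (chromosome 16, 95359169 to 95586600, GRCm38.p6) lies 115.8 kb from Ets2 (95702407 to 95721049), with 0 protein-coding genes of the RefSeq table between them. Fli1 (chromosome 9, 32422204 to 32543432) lies 92.8 kb from Ets1 (32636241 to 32757820), again with 0 between. Of the first pair, Erg was lower in 3 of 3 numbers and Ets2 in 1 of 3, with a correlation between them of -0.39 over the 6 arrays. Of the second pair, both were lower in numbers 1 and 3 on their brightest probe sets, and in number 2 Fli1 was higher and Ets1 lower. Fli1 probe set 1422024_at and Ets1 probe set 1422027_a_at were instead higher in 3 of 3 numbers. The remaining Ets1 probe sets had numbers of both signs, and every Ets1 probe set lay below the filter. Gabpa is on the same chromosome as Erg and Ets2, at 84834891 to 84863783.

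RefSeq promoter windows, which reach from upstream of a transcript start to just inside it, were available for 7 of the 10 members, 11 windows in all. They were searched on both strands for 2 ETS-type motifs chosen after the windows were seen, CCGGAAG and CAGGAAG, which are equally long and which 8.86% and 13.3% of all 32851 windows hold. Of the members' windows 1 held CCGGAAG, in Gabpa, and 5 held CAGGAAG, in Erg, Etv6, Elf4, Elk3 and Gabpa. The window of Erg with a match lies on the minus strand at chr16:95459299-95459598, and that of Gabpa on the plus strand at chr16:84834874-84835173. They are shown with the matches in capitals, since Erg is the member that fell with the block and Gabpa the member with both motifs.
Erg: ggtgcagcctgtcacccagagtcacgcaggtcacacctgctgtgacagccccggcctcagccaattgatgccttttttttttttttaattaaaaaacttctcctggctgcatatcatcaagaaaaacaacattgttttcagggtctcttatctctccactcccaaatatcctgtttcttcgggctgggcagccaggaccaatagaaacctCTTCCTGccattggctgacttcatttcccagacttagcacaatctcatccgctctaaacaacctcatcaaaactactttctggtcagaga
Gabpa: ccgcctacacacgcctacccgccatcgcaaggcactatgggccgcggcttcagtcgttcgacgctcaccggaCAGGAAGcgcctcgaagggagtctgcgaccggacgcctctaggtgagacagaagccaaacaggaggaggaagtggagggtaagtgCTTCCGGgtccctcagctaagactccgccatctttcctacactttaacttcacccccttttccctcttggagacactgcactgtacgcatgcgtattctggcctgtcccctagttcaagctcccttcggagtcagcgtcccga
The Erg match is on the opposite strand and begins 40 bases before the start, and the other 2 Erg windows held neither motif. A match is a run of letters, not a measured binding site.

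The pattern of Erg over the 6 arrays was closest to that of Polr3g, Dop1b, Retreg1, Fancf and Pspc1, by Pearson correlation of log2(signal + 16) among 10207 other genes. The coefficients were 0.985, 0.984, 0.979, 0.978 and 0.978. The arrays share arms and replicate numbers, so these values describe likeness only. These genes were picked for that likeness on the same arrays, so a high number 2 and a shared direction largely follow from the choice. Polr3g, a subunit of RNA polymerase III, was at 50.4, 79.8 and 50.1 in miR-9/9* cells and 80.9, 109 and 87.0 in empty vector cells. Like Erg it was highest in number 2 of each arm, and it fell with the block (log2 fold change -0.52, adjusted p = 0.0389, against 0.977 without the block), a call that ended without number 1 (adjusted p = 0.114) or 3 (0.0844), without a filter (0.153) and without a variance trend (0.0855). The other 4 were lower in 3 of 3 numbers, as 18.0% of all genes tested were, by means of 0.13 to 0.28, and passed in neither fit. Of the ETS members, Elf4 and Gabpa correlated with Erg at 0.68 and 0.67, Fli1 at 0.47 and Elf1 at -0.29.

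The 16 ETS genes outside the 10 members add 14 with a probe set, of which 7 were above the filter. With the block 0 of the 7 passed in either direction, where 2.96% of all genes tested did, and 1 had an unadjusted p under 0.05. Without it 0 passed, where 0.0588% of all genes did, and 0 had such a p. Their median log2 fold change was 0.02. The brightest were Elf2, at 335 ± 35.3 in miR-9/9* cells and 307 ± 34.3 in empty vector cells, and Elk4, at 374 ± 82.3 in miR-9/9* cells and 378 ± 42.1 in empty vector cells (SD, n = 3 each). The arms were separated for Etv3, a repressor, at 179, 192 and 187 in miR-9/9* cells and 220, 247 and 196 in empty vector cells (log2 fold change -0.23, blocked adjusted p = 0.208), and for Elk1, a ternary complex factor (-0.35, blocked adjusted p = 0.294). These 2 genes were picked for their separated arms, which 9.82% of all genes tested had, 4.74% with the miR-9/9* arm below. Elk1 was dim, at 14.6, 14.9 and 7.32 in miR-9/9* cells and 18.4, 22.5 and 18.7 in empty vector cells, near the filter at a signal of 12.9. Etv2, Etv4, Elf5, Ehf, Spib, Spic and Spdef lay below the filter.

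ETS factors act on blood enhancers together with other factors, and in stem and progenitor cells ERG and FLI1 sit beside GATA2, TAL1, LYL1, LMO2 and RUNX1. Of 15 partner factors listed 13 were above the filter. With the block 3 rose, Gata1, Tal1 and Zfpm1, where 1.51% of all genes tested rose, and 1 fell, Lmo2, where 1.45% did. Without the block 0 passed (limma, 4 with an unadjusted p under 0.05, Tal1, Gata1, Zfpm1 and Cebpa), and the median log2 fold change of the list was 0.02.

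Lmo2, an adaptor that bridges TAL1 and GATA factors, was at 589, 945 and 601 in miR-9/9* cells, against 756, 1152 and 839 in empty vector cells. As with Erg, number 2 was the highest of each arm, and Lmo2 followed Erg with a correlation of 0.97, exceeded by 7 of 10207 genes. Its log2 fold change was -0.37 (limma with the block, adjusted p = 0.0230, against 0.999 without it), a call lost without number 1 (adjusted p = 0.0908), without a filter (0.0849) and without a variance trend (0.141). Tal1, which forms the same complex, was at 1382, 1461 and 1107 in miR-9/9* cells, against 963, 963 and 945 in empty vector cells. The arms were separated, and it rose by 0.44 on the log2 scale (blocked adjusted p = 0.0244, against 0.620 without the block). That call was lost without number 1 (adjusted p = 0.0968) or 2 (0.0717), without a filter (0.111) and without a variance trend (0.142). Lmo2 and Tal1 thus moved in opposite directions in all 3 replicate numbers.

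Gata1, the erythroid and megakaryocyte factor that antagonises PU.1, was at 982, 761 and 939 in miR-9/9* cells and at 639, 515 and 711 in empty vector cells. It rose by 0.52 with the block (limma adjusted p = 0.00667), no longer without a variance trend (0.0801). Its cofactor Zfpm1, known as FOG1, was at 552, 559.7 and 459 in miR-9/9* cells and at 346, 396 and 406 in empty vector cells. It rose by 0.44 with the block (adjusted p = 0.0402), and leaving out number 1 (adjusted p = 0.164) or 2 (0.0628), quantile normalization (0.0637), centring on the median (0.0729), averaging its probe sets (0.117), dropping the filter (0.151) and dropping the trend (0.176) each ended that call. Gata1 and Zfpm1 were separated between the arms. Of the 13 partner factors tested, Tal1, Lyl1, Srf, Gata1 and Zfpm1 had the miR-9/9* arm wholly above, and Gata2 had it wholly below. Separated arms were shown by 9.82% of all genes tested, 4.74% with the miR-9/9* arm below.

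The remaining members of the stem cell group did not pass. Gata2 was at 667 ± 46.6 in miR-9/9* cells and 772 ± 82.9 in empty vector cells (SD, n = 3 each), with a log2 fold change of -0.20 (blocked adjusted p = 0.218). Its arms nearly touched, with the highest miR-9/9* array at 696.9 and the lowest empty vector array at 697.3. Lyl1, a close relative of Tal1, stood at 0.25 (0.229) and Runx1 at 0.29 (0.199), both higher in 3 of 3 numbers. The arms of Lyl1 were separated and those of Runx1 overlapped. Gabpb1, a beta subunit for GABPA, was lower in 3 of 3 numbers by a mean of 0.36 (blocked adjusted p = 0.119). Cebpa, a granulocyte factor that works with PU.1, was at 19.5, 32.6 and 16.03 in miR-9/9* cells and 93.9, 66.4 and 24.5 in empty vector cells (log2 fold change -0.91, blocked adjusted p = 0.0625).

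**Figure D3:**
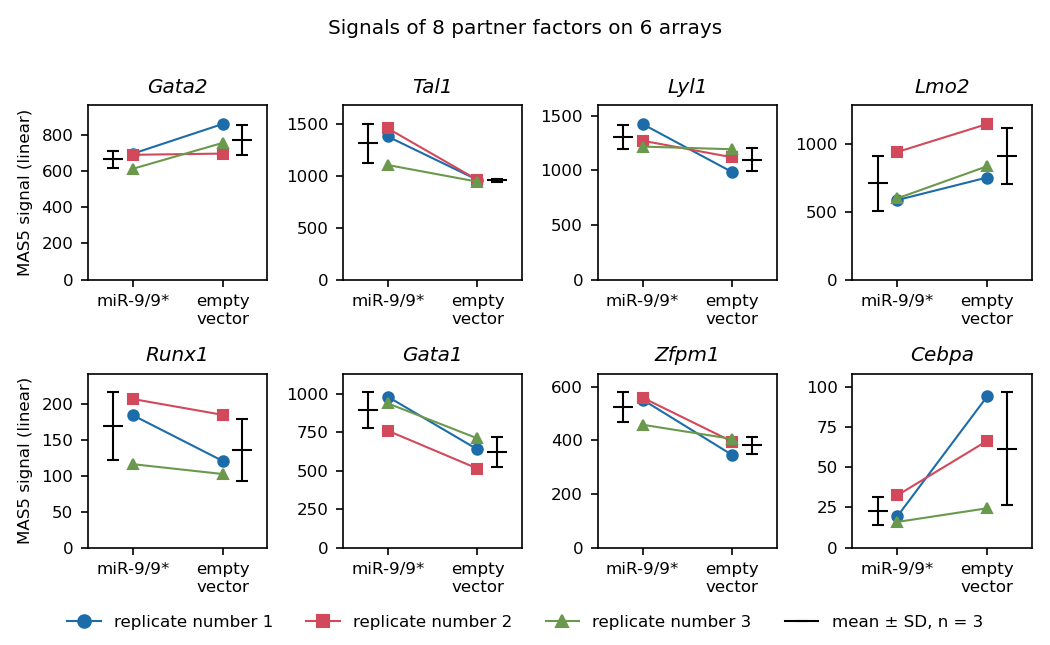
MAS5 signal (linear axis from 0, a separate scale per gene) of 8 factors that act beside ETS proteins, on 6 arrays. Lines join the miR-9/9* array (left) and the empty vector array (right) of 1 replicate number, and black bars give the mean ± SD of 3 arrays. Lmo2 lies lower on the miR-9/9* side in all 3 numbers, and Tal1, Gata1 and Zfpm1 lie higher.

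Genes reported elsewhere as targets of ERG or FLI1 were listed next, most of them platelet and endothelial genes. Of 18 listed 10 were above the filter. With the block 3 rose, Gp9, Gp5 and Vwf, where 1.51% of all genes tested rose, and 0 fell, where 1.45% did. Without it 0 passed (limma, 2 with an unadjusted p under 0.05). The median was 0.04. Gp9, a subunit of the platelet receptor for von Willebrand factor, was at 199, 362 and 175 in miR-9/9* cells and 105, 204 and 94.8 in empty vector cells (log2 fold change 0.80, blocked adjusted p = 0.00192). Vwf, the ligand, was at 86.3, 452 and 40.1 in miR-9/9* cells and 33.9, 242 and 21.6 in empty vector cells (0.82, blocked adjusted p = 0.00777). For both genes number 2 was the highest of each arm, as it was for Erg. Gp5, at 177 ± 26.6 in miR-9/9* cells and 133 ± 25.6 in empty vector cells (SD, n = 3 each), passed with the block (0.38, adjusted p = 0.0446). The call of Gp5 was lost under 7 of 12 blocked alternatives, among them leaving out number 1 (adjusted p = 0.172), 2 (0.0709) or 3 (0.0835), and that of Vwf under 2, without a filter (0.0562) and without a variance trend (0.0581). Itga2b, a platelet integrin, was at 1330 ± 315 in miR-9/9* cells and 1274 ± 324 in empty vector cells. Hhex, a factor of blood and endothelium, was at 515 ± 120.2 in miR-9/9* cells and 526 ± 119.5 in empty vector cells. Neither passed. Of the endothelial genes on the list, Cdh5, Tek, Esam and Cldn5 lay below the filter, while Icam2, Egfl7, Tie1 and Eng lay above it and did not pass. Icam2 ran from 258 to 266 in miR-9/9* cells and from 253 to 283 in empty vector cells, and Egfl7 from 73.1 to 149 in miR-9/9* cells and from 52.8 to 113 in empty vector cells, higher in 3 of 3 numbers.

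Of 17 genes reported as targets of PU.1 13 were above the filter. With the block 1 fell, Csf2rb, where 1.45% of all genes tested fell, and 0 rose, where 1.51% did. Without it 0 passed (limma, 0 with an unadjusted p under 0.05). The median was 0.06. Csf2rb, a signalling subunit shared by the receptors for interleukin-3, interleukin-5 and GM-CSF, was at 2050.4, 974 and 2182 in miR-9/9* cells and 2736, 1244 and 2675 in empty vector cells. Number 2 was the lowest of each arm, the reverse of Erg. Its log2 fold change was -0.35 (blocked adjusted p = 0.0362), lost without number 1 (adjusted p = 0.221) or 2 (0.157), without a filter (0.121) and without a variance trend (0.141).

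Markers of the cells place these values. The labelled myeloid line had Ptprc, Csf2rb, Myb, Prtn3, Mpo, Il3ra and Ctsg above the filter. Mpo, the neutrophil peroxidase, was uneven, at 1629, 126 and 288 in miR-9/9* cells and 345, 132 and 59.97 in empty vector cells, while Cd34, Kit and Elane, also on the list of 10 myeloid progenitor markers, lay below the filter, and of the 7 tested Csf2rb fell with the block. With the block 3 of 8 erythroid markers rose (Gata1, Klf1 and Rhag), as did 4 of 8 megakaryocyte markers (Itgb3, Gp5, Gp9 and Vwf). So did 2 of 4 eosinophil markers (Prg2 and Siglecf), and 4 of 8 late neutrophil markers fell (Ltf, S100a8, S100a9 and Stfa2l1). Of all genes tested 1.51% rose and 1.45% fell with the block. Erythroid markers tested but not called were Epb42 (log2 fold change -0.15), Tfrc (-0.10), Hba-a2 (0.04), Epor (0.12) and Hemgn (0.21). Megakaryocyte markers not called were Thbs1 (-0.13), Selp (-0.12), Pf4 (0.01) and Itga2b (0.07). Late neutrophil markers not called were Ngp (-0.78), Lcn2 (-0.77), Itgam (-0.18) and Mmp9 (0.18), the last higher in 3 of 3 numbers. Gata1, Gp5, Gp9, Vwf and Csf2rb were also on the partner or target lists, so their calls were already counted there. Of 6 monocyte and macrophage markers F13a1 rose in both fits, the 1 marker of all these lists that passed without the block. Rhag, Itgb3, Gp9 and F13a1 kept their blocked call in all 12 blocked alternatives, while each of the other marker genes called with the block lost it in at least 1. In the remaining lists, 0 of 5 mast cell and basophil and 0 of 1 lymphoid markers passed in either (limma, 0 and 0 with an unadjusted p under 0.05 without the block, 3 and 0 with it). Summed signals of the erythroid markers ran from 3852 to 4010.3 in miR-9/9* cells and from 2810.0 to 3979 in empty vector cells, and those of the megakaryocyte markers from 1564 to 2967 in miR-9/9* cells and from 1303 to 2369 in empty vector cells. The late neutrophil sum ran from 369 to 2784 in miR-9/9* cells and from 1217 to 4069 in empty vector cells, and the eosinophil sum from 280.3 to 3779 in miR-9/9* cells and from 258 to 1378 in empty vector cells. The monocyte sum ran from 864 to 1192 in miR-9/9* cells and from 788 to 897 in empty vector cells, the mast cell sum from 747 to 908 in miR-9/9* cells and from 775 to 1096 in empty vector cells, and the lymphoid sum from 53.7 to 71.2 in miR-9/9* cells and from 50.7 to 64.8 in empty vector cells. These sums are linear, so bright genes weigh most. On every array the largest term was Tfrc in the erythroid sum, Itga2b in the megakaryocyte sum and Gata2 in the mast cell sum. Those genes passed in neither fit. Gata2 ran from 613 to 697 in miR-9/9* cells and from 697 to 861 in empty vector cells. Among red cell messages, Alas2, Hba-a1 and Slc4a1 lay below the filter, with the highest array at 1.54 for Alas2, 4.02 for Hba-a1 and 6.28 for Slc4a1. The other alpha-globin gene, Hba-a2, lay above it, at 16.7 to 29.7 in miR-9/9* cells and 11.6 to 28.1 in empty vector cells, as did Epb42, at 25.1 to 36.2 in miR-9/9* cells and 28.9 to 39.5 in empty vector cells. Of 10 measured lymphoid markers 9 lay below the filter. The part of these lineage differences in the values of Erg and its partners was not tested.

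**Figure D4:**
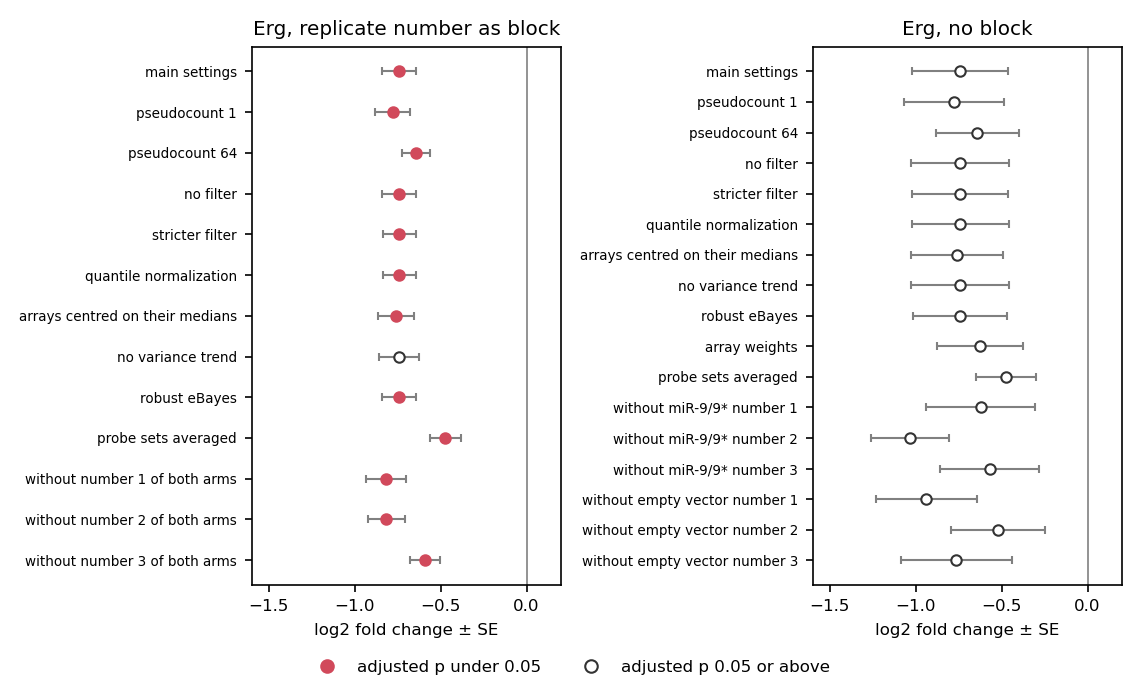
Log2 fold change of Erg, miR-9/9* over empty vector, ± its standard error under each setting, with the replicate number as a block (left) and without it (right). Filled points have an adjusted p under 0.05 and open points do not. The change was negative in all 30 fits, from -1.03 to -0.47, and passed in 12 of the 13 blocked fits and in 0 of the 17 without the block.

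The change of Erg kept its sign in all 30 fits shown in the plot of settings. It was smallest where its bright and dim probe sets were averaged, at -0.47, and largest without number 2 of the miR-9/9* arm, at -1.03.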

How the data were processed

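Total RNA of 6 samples of 32D cells was hybridised to Affymetrix arrays, 1 array per sample. The authors deposited MAS5 signal intensity values on a linear scale, per the submitters' processing notes and the labels; the MAS5 version is not given in the sources used here. Of 45101 probe sets, 64 controls were left out, 34958 carried 1 gene symbol, 932 several and 9160 none. Controls that carry a symbol are also in the counts by symbol, so these parts overlap. Names come from a platform annotation checked through RefSeq (GRCm38.p6), where 34754 probe sets matched by gene ID and 0 symbols changed. Values were taken as log2(signal + 16), with 1 probe set per gene, the brightest by mean log2, and genes below the median of that mean (4.86, or 12.9 in signal) were dropped, so that 10208 genes were tested. Arms were compared with limma 3.58.1 (R 4.3.3; lmFit and eBayes with a variance trend) and Benjamini-Hochberg adjustment over all genes at a threshold of 0.05, first without and then with the replicate number as a block. Same-numbered arrays correlated in their deviations from the arm means at 0.491, 0.616 and 0.680, which is why the numbers were taken as pairs. Without the block, p-values rest on the spread between the arrays of an arm. With it they rest on the spread of the differences within replicate numbers. Limma moderates either spread over genes, and either may be technical. Genes named are the 10 members, list genes called in either fit, otherwise the 2 of a list with the highest mean, and the 5 genes most correlated with Erg; further list genes, such as Etv3, Elk1, Gata2, Lyl1, Runx1, Gabpb1 and Cebpa, were named after their values were seen. The members and lists were chosen with earlier results of these data known. Pseudocount, filter, normalization, variance model, array weights, probe set choice and left-out arrays were varied.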

Additional observations from a re-analysis of the deposited data

How the results depend on the processing

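Over all genes, 2 were called higher and 4 lower in miR-9/9* cells than in empty vector cells (limma, adjusted p under 0.05, 470 genes with an unadjusted p under 0.05). With the replicate block, which pairs same-numbered arrays, these counts were 154 and 148. Without the block they were 1 and 1 with a pseudocount of 1, 0 and 0 without a filter (892 with an unadjusted p under 0.05), 3 and 2 after quantile normalization, 1 and 2 without a variance trend and 14 and 12 with array weights, and ran from 0 to 3 and from 0 to 5 when 1 array was left out. With the replicate block they were 145 and 137 with a pseudocount of 1, 147 and 146 with 64, 40 and 34 without a filter, 175 and 164 with a stricter filter, 136 and 137 after quantile normalization, 116 and 150 with arrays centred on their medians, 21 and 17 without a variance trend, 157 and 152 with robust eBayes and 100 and 87 with probe sets averaged. Leaving out number 1, 2 or 3 of both arms gave 86, 195 and 179 higher and 78, 159 and 215 lower. Erg with the replicate block stood at -0.74 (limma adjusted p = 0.00646), and at -0.78 (0.00741) and -0.64 (0.00640) with pseudocounts of 1 and 64. It was at -0.74 without a filter (0.0483), with a stricter one (0.00454) and after quantile normalization (0.0104). Centred arrays gave -0.76 (0.00943), robust eBayes -0.74 (0.00500) and averaged probe sets -0.47 (0.0420). Without a variance trend the blocked call was lost, at -0.74 (0.0764). Blocked fits without number 1, 2 or 3 gave -0.82, -0.82 and -0.59. Without the block, leaving out 1 array gave -1.03 to -0.52.

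Signs turned only for genes not called in that fit, and the cause was not tested. Quantile normalization gave Fli1 0.0083, Elf1 0.0024 and Elk3 -0.0044, and centring gave Etv6 -0.018 and Elk3 -0.0093, each with and without the replicate block. Array weights gave Spi1 0.0077 and Elf1 0.041. Averaged probe sets gave Fli1 0.048, Etv6 -0.13, Elf1 0.014, Elk4 0.022 and Fancf 0.054, with and without the block. With the block, leaving out number 1 gave Fli1 0.12, Etv6 -0.087 and Elk3 -0.038, number 2 gave Spi1 0.020, and number 3 gave Fli1 0.029, Elf1 0.064, Elk3 -0.089, Elk4 0.067 and Cpa3 -0.11. Without the block, leaving out 1 array gave ranges across 0 of -0.24 to 0.17 for Fli1, -0.051 to 0.089 for Etv6, -0.068 to 0.034 for Elf1, -0.28 to 0.094 for Gabpa, -0.16 to 0.16 for Elk3, -0.17 to 0.14 for Elk4, -0.051 to 1.68 for Vwf, -0.72 to 0.018 for Csf2rb and -0.16 to 1.00 for Cpa3. Number 2 of the miR-9/9* arm turned Vwf and Csf2rb. The blocked fit of all 6 arrays rests on 2 residual degrees of freedom, and the blocked fits without 1 number of both arms rest on fewer. Genes under the filter were tested only where the filter was dropped or the setting moved it.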
